A study of Rattus norvegicus with 10 samples.

Results

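Glycogen is the branched glucose store of heart muscle, and the mRNA of 9 genes that build it, break it down or control its enzymes was compared. Glycogen itself, proteins and enzyme activities were not measured in these data. The genes were taken by symbol from the deposited expression table, namely Gyg1, Ugp2, Gys1, Gbe1, Pygm, Pygb, Pygl, Phka1 and Ppp1r3a, and 9 of 9 were present among the 18025 genes listed. In hearts of fetuses from hyperglycemic pregnancies, the glycogen synthase gene Gys1, the phosphorylase genes Pygm and Pygb and the phosphatase subunit gene Ppp1r3a were lower than in controls, and the mean level of Pygm fell by 29.6%. Most cardiomyocyte marker genes were lower too. Relative to their sum, a measure chosen after the values were seen, the groups overlapped in these 4 genes. This measure lifts every gene, and on it only 1.43% of all genes tested were lower in HG without overlap. The liver-type phosphorylase gene Pygl was higher, and so was the primer gene Gyg1, which did not pass under median-of-ratios scaling. Differences in Ugp2, Gbe1 and Phka1 did not pass the test.

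Hearts were taken at embryonic day 19.5 from fetuses of wild-type Sprague-Dawley rats aged 3 months. After mating, the dams of the hyperglycemia group (HG, n = 5 libraries) were injected on 3 days in a row with streptozotocin (STZ), a compound that destroys pancreatic beta cells, and those of the control group (CON, n = 5 libraries) with the citric acid buffer alone. This timing follows the study's methods, whereas its introduction places the induced hyperglycemia before pregnancy. In this model the dam is diabetic, and the fetus is exposed through the placenta. The labels and the study's methods and results name hearts, whereas a legend in the study speaks of cardiomyocytes isolated from the fetuses. The values of cell type markers below mean different things in these 2 cases. The labels do not give the dam or litter of a library, and the study's methods speak of pooled RNA, so that p-values measure the spread between these libraries, which may be partly technical.

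Values are FPKM (fragment counts scaled to gene length and library size), so that levels can be compared between genes. They were whole multiples of the value of 1 read, and the reads on genes numbered 17639895 to 18240006 in CON and 16672876 to 19109844 in HG. Markers of heart muscle were high throughout, with a summed level of 9 cardiomyocyte genes of 16269 to 17115 FPKM in CON and 12453 to 14280 FPKM in HG, and 7 of the 9 were lower in HG by the test described below. Endothelial markers (177 to 192 FPKM in CON, 173 to 189 FPKM in HG) and fibroblast markers (1092 to 1248 FPKM in CON, 989.5 to 1119 FPKM in HG) were present in every library. Smooth muscle and pericyte markers summed to 593 to 703 FPKM in CON and to 726 to 903 FPKM in HG, without overlap, with 1 of 4 called higher and 1 lower. Red cell markers summed to between 9920 and 18702 FPKM in CON and between 7878 and 11168 FPKM in HG, with 5 of 8 called lower, while the embryonic globin genes Hbz and Hbe1 were called higher (limma log2FC 4.07 and 2.24). Liver markers, of which 4 of 7 tested were lower in HG, summed to 80.5 FPKM in CON library 3, to between 3.17 and 8.35 FPKM in the other 4 CON libraries and to at most 2.81 FPKM in HG. In bulk libraries such as these, fewer cells of a type and less RNA per cell cannot be told apart.

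As background, glycogenin (Gyg1) attaches the first glucose units to itself and so primes a new particle. UDP-glucose pyrophosphorylase (Ugp2) makes the activated glucose, glycogen synthase (Gys1) adds it to the growing chain, and the branching enzyme (Gbe1) makes the branch points. Glycogen phosphorylase releases glucose 1-phosphate from the chain ends, and it exists as a muscle (Pygm), a brain (Pygb) and a liver (Pygl) isoform. Phosphorylase kinase, of which Phka1 encodes the muscle regulatory subunit, switches phosphorylase on, while protein phosphatase 1, brought to glycogen by subunits such as that of Ppp1r3a, switches phosphorylase off and synthase on. The fetal heart is known for its large glycogen store, which it draws on when oxygen is short.

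The genes were compared as log2(FPKM + 0.1) with limma, a linear model fitted over the 14542 genes whose mean reached 0.1 FPKM. The log2FC is the fitted difference HG minus CON on this scale, SE is its standard error, and p-values were adjusted over all genes tested by the Benjamini-Hochberg (BH) method. A gene is called lower or higher at an adjusted p under 0.05. All 9 genes passed the filter, and 6 of them were called, 4 lower and 2 higher in HG. Among all genes tested, 40.1% were called, 11.8% lower and 28.4% higher, so that the 9 genes held more lower calls in proportion than the whole table and about as many higher calls. These genes, and those of the further list below, were chosen with earlier results of these data known. Comparisons of their shares with the whole table are therefore a description and not a test. The median log2FC was -0.07 over the 9 genes and 0.09 over all genes tested. The groups did not overlap in 5 of the 9 genes, against 27.4% of all genes tested, with 4 lower in HG (8.12% of all) and 1 higher (19.3% of all).

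The study's own threshold also asks for an absolute log2FC above 1. In limma 0 of the 9 genes passed it, against 1.94% of all genes tested, while 6 had an unadjusted p under 0.05. Pygl came nearest with 0.996, and it crossed the threshold in 7 of 21 alternative settings, among them voom on the recovered reads (1.01) and the fits without CON replicate 3 (1.18), CON replicate 4 (1.14), HG replicate 1 (1.04) or HG replicate 4 (1.09).

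In CON the genes stood in the order Gyg1, Pygm, Gys1, Pygb, Ugp2, Gbe1, Pygl, Ppp1r3a and Phka1 by mean FPKM, from 522.9 down to 4.60 FPKM. The ranges of neighbours in this order did not overlap down to Gbe1, whereas those of Pygl and Ppp1r3a and those of Ppp1r3a and Phka1 did. In HG the order was the same except that Phka1 stood above Ppp1r3a, and the ranges of Gys1 and Pygb met.

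**Figure D1:**
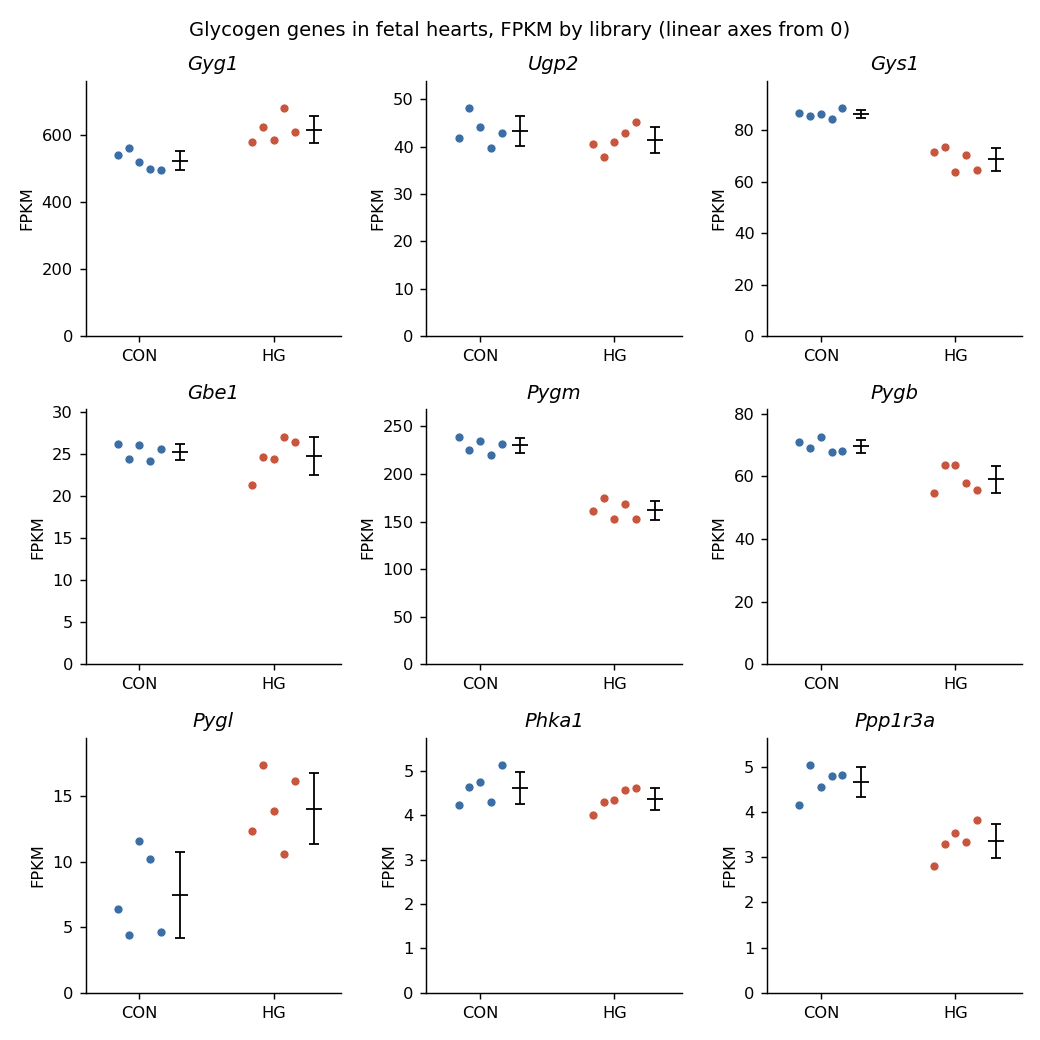
FPKM of the 9 glycogen genes (y axis, linear and starting at 0) in the 5 CON and 5 HG libraries (points, 1 per library), with the mean and SD of each group as a bar beside them. All HG points of Gys1, Pygm, Pygb and Ppp1r3a lie under the CON points, those of Gyg1 lie above them, and the points of Pygl, Ugp2, Gbe1 and Phka1 overlap between groups.

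The promoters of 3 genes are shown because they stand for the priming, the elongation and the breakdown step and because Gyg1 differed in the direction opposite to the other 2. The sequences are the 250 bases before the gene start in RefSeq (build GRCr8), with matches to the motifs described below in capitals. Gyg1 lies at chr2:104582778-104583027 on the minus strand, Gys1 at chr1:105051666-105051915 on the plus strand and Pygm at chr1:213119555-213119804 on the plus strand.
Gyg1: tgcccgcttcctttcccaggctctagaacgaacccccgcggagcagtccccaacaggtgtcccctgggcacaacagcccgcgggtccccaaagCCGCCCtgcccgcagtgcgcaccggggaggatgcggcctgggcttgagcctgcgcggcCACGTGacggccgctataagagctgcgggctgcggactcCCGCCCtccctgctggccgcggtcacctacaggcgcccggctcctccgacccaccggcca
Gys1: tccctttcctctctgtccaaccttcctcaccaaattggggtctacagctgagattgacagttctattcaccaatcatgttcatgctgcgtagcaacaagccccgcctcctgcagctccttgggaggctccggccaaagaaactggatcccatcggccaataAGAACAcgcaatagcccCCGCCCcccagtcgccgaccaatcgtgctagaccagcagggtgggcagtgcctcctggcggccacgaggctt
Pygm: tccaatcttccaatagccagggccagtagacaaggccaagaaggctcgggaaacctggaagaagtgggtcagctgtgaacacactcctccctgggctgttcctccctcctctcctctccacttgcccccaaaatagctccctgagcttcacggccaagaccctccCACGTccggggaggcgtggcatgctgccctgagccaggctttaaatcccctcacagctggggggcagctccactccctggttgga
A promoter was found in RefSeq for 9 of the 9 genes, and 6 motifs were searched on both strands. The palindromic E-box CACGTG, a core of carbohydrate response elements, was found in the Gyg1 promoter only among the 9 and in 5.59% of 33469 promoters. ACGTG, the core of hypoxia response elements, which also lies within CACGTG, was found in Gyg1, Gbe1, Pygm, Pygb and Pygl and in 16.6% of all promoters. The GC box GGGCGG was found in Gyg1, Ugp2, Gys1, Gbe1, Pygb and Pygl and in 30.5% of all promoters. Of the rest, AGAACA, a part of glucocorticoid response elements, was found in Gys1 (17.5% of all promoters), TATAAA in Ppp1r3a (12.9%) and the nuclear receptor motif AAGGTCA in 0 of the 9 (3.99%). These are matches of letters and were not tested as binding sites. The 33469 promoters outnumber the 18025 genes of the expression table and were not matched to the 9 genes in base content. Enrichment of a motif was therefore not tested.

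Among the genes of synthesis, Gyg1 (NCBI Gene 81675) was the most abundant of the 9. It measured 540.2, 562, 518, 499 and 496 FPKM in CON libraries 1 to 5, and 579, 625, 586, 679.5 and 609 FPKM in HG libraries 1 to 5. No HG library reached down to the CON range. The level averaged 522.9 ± 28.2 FPKM over the 5 CON libraries and 616 ± 40.0 FPKM over the 5 HG libraries (SD), with a limma log2FC of 0.24 (SE 0.0511, BH-adjusted p = 0.00321). With each library divided by its median-of-ratios factor, a scaling that moved the median of all genes from 0.09 to 0.01, Gyg1 had a log2FC of 0.15 and no longer passed (limma, BH-adjusted p = 0.0652). Under this scaling 33.3% of all genes were called, 15.7% higher and 17.5% lower.

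Gys1 (690987), whose product extends the chain, measured 86.6, 85.3, 86.3, 84.2 and 88.4 FPKM in CON and 71.6, 73.5, 63.6, 70.2 and 64.4 FPKM in HG. The CON libraries lay close together and all above the HG libraries. From an average of 86.2 ± 1.58 FPKM over 5 CON libraries to 68.7 ± 4.42 FPKM over 5 HG libraries (SD), the level fell by 20.3%, with a limma log2FC of -0.33 (SE 0.0434, BH-adjusted p = 0.00012). The liver synthase gene Gys2 was near the limit of detection, with 2.5 reads per library in the median, and Gys1 held 99.9% of the summed FPKM of both synthase genes in either group.

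Ugp2 (289827) measured 41.7, 48.1, 44.1, 39.7 and 43.0 FPKM in CON and 40.6, 37.7, 40.9, 42.9 and 45.2 FPKM in HG, with ranges that overlapped over most of their length. Its log2FC was -0.06 with a 95% interval from -0.19 to 0.06 (limma, BH-adjusted p = 0.417). The branching enzyme gene Gbe1 (288333) measured 26.3, 24.4, 26.1, 24.3 and 25.6 FPKM in CON and 21.3, 24.7, 24.5, 27.1 and 26.4 FPKM in HG. Its HG libraries lay on both sides of the CON libraries, and the log2FC was -0.03 (95% interval -0.16 to 0.10, limma, BH-adjusted p = 0.685). Without HG replicate 1, the lowest library, it was 0.019. Neither gene passed the test in any of the 21 alternative settings.

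Among the genes of breakdown, Pygm (24701), the muscle phosphorylase, had the smallest adjusted p of the 9 genes. It measured 239, 225, 235, 219.6 and 232 FPKM in CON and 161, 175, 153, 168 and 153 FPKM in HG, so that a wide gap parted the groups. The level fell by 29.6%, from an average of 230.1 ± 7.81 FPKM over 5 CON libraries to 162 ± 9.82 FPKM over 5 HG libraries (SD), with a limma log2FC of -0.51 (SE 0.0440, BH-adjusted p = 6.29e-06). Pygb (25739), the isoform first known from brain, measured 70.9, 68.9, 72.6, 67.6 and 68.2 FPKM in CON and 54.6, 63.6, 63.7, 57.8 and 55.7 FPKM in HG. Its groups did not overlap, and its mean fell by 15.2% (limma log2FC -0.24, SE 0.0483, BH-adjusted p = 0.00202).

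Pygl (64035), the liver isoform, went the other way and had the largest absolute log2FC of the 9 genes. It measured 6.43, 4.39, 11.6, 10.2 and 4.63 FPKM in CON and 12.3, 17.3, 13.9, 10.6 and 16.1 FPKM in HG. CON libraries 3 and 4 stood above the other CON libraries, and CON library 3 lay above the lowest HG library, so that the groups overlapped. The level averaged 7.45 ± 3.28 FPKM over 5 CON libraries and 14.1 ± 2.74 FPKM over 5 HG libraries (SD), 1.89 times as much (limma log2FC 0.996, SE 0.253, BH-adjusted p = 0.00793). Pygl rested on 217 to 865 reads per library, whereas Pygm rested on 7738 to 13160.

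CON library 3, which was highest in Pygl among the CON libraries, was also highest in liver markers, and without it the log2FC of Pygl was 1.18. CON library 4, next in Pygl with 10.2 FPKM, had a liver marker sum of 8.06 FPKM, and without it the log2FC was 1.14. CON library 2, lowest in Pygl with 4.39 FPKM, had a liver marker sum of 8.35 FPKM. Liver markers summed to less in every HG library than in any CON library, whereas Pygl was higher in HG. Of 5 macrophage markers, Cd68 was called higher and Cd163 lower, 3 did not pass, and their sum ranged from 9.51 to 12.9 FPKM in CON and from 11.3 to 13.9 FPKM in HG. The smooth muscle and pericyte sum was, like Pygl, higher in HG, and it consisted mostly of Acta2 (mean 538 FPKM in CON and 673 FPKM in HG). Of the other markers in that sum, Rgs5 was called lower (mean 89.7 FPKM in CON and 72.2 FPKM in HG), and Myh11 and Pdgfrb did not pass. The part of these cell types in the level of Pygl was not tested.

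**Figure D2:**
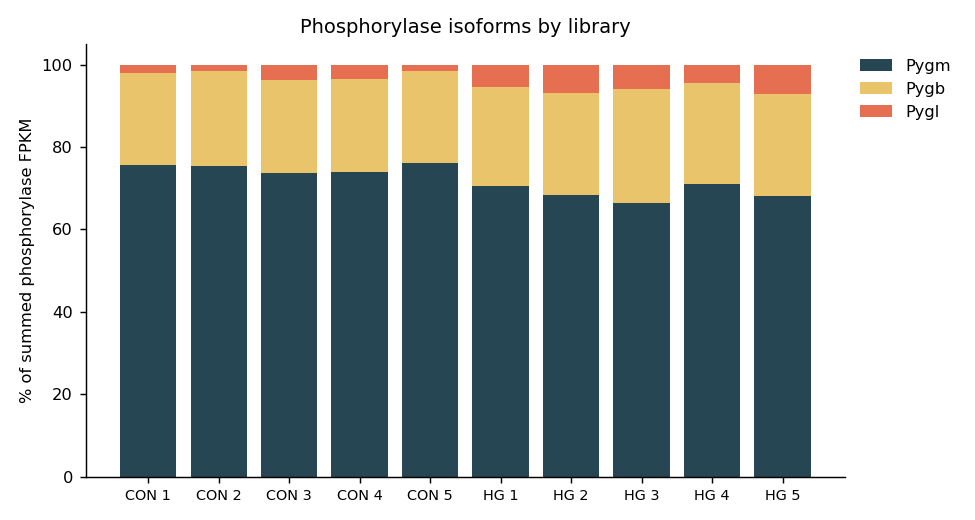
Share of each phosphorylase isoform in the summed FPKM of Pygm, Pygb and Pygl (y axis, %), stacked for each of the 10 libraries (x axis). The Pygm share lies between 73.6% and 76.1% in CON and between 66.4% and 71.1% in HG, and the Pygl share is larger in every HG library.

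Because FPKM depends on the rest of the library, ratios were also taken within each library, where the scaling cancels. Of 10 ratios compared with exact two-sided permutation tests (5 against 5, for which 0.00794 is the smallest p), 6 had a BH-adjusted p under 0.05. These 6 are not independent, since 3 are shares that add up to the whole and the other 3 have Gys1 as denominator. Pygm made up 74.9 ± 1.11% of the summed phosphorylase FPKM over the 5 CON libraries and 68.9 ± 1.96% over the 5 HG libraries (SD, exact permutation p = 0.00794, BH-adjusted p = 0.0198). Pygb made up 22.7 ± 0.293% and 25.1 ± 1.44%, and Pygl 2.42 ± 1.04% and 5.97 ± 1.08% (exact permutation p = 0.00794 and BH-adjusted p = 0.0198 for both). The groups did not overlap in any of these 3 shares. The Pygb share rose although Pygb itself was called lower, and Pygm fell by more. The isoform mix thus moved away from Pygm, which stayed the main isoform in 10 of 10 libraries.

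Gyg1 stood further above Gys1 in HG, with a log2 ratio of 2.6 ± 0.0870 over the CON libraries and 3.17 ± 0.109 over the HG libraries (SD of 5 each, difference 0.57, exact permutation p = 0.00794, BH-adjusted p = 0.0198), and the groups did not overlap. The log2 ratio of Ugp2 to Gys1 was higher in HG by 0.27 (exact permutation p = 0.0159, BH-adjusted p = 0.0317) and that of Gbe1 to Gys1 by 0.30 (exact permutation p = 0.0238, BH-adjusted p = 0.0397), both with overlapping groups. Gys1 thus fell relative to the priming, supply and branching genes. The log2 ratio of Gys1 to the summed phosphorylases was -1.83 ± 0.0429 and -1.78 ± 0.0694 in CON and HG, a difference of 0.06 that did not pass (exact permutation p = 0.167, BH-adjusted p = 0.208). With 1 library left out, for which 0.0159 is the smallest p, the Gbe1 ratio did not pass without any 1 of CON replicates 1 to 5 or HG replicates 2 to 5 (differences from 0.25 to 0.36 over all 10 libraries left out in turn). The Ugp2 ratio did not pass without CON replicate 1, 3, 4 or 5 or HG replicate 1, 3, 4 or 5 (0.21 to 0.33).

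**Figure D3:**
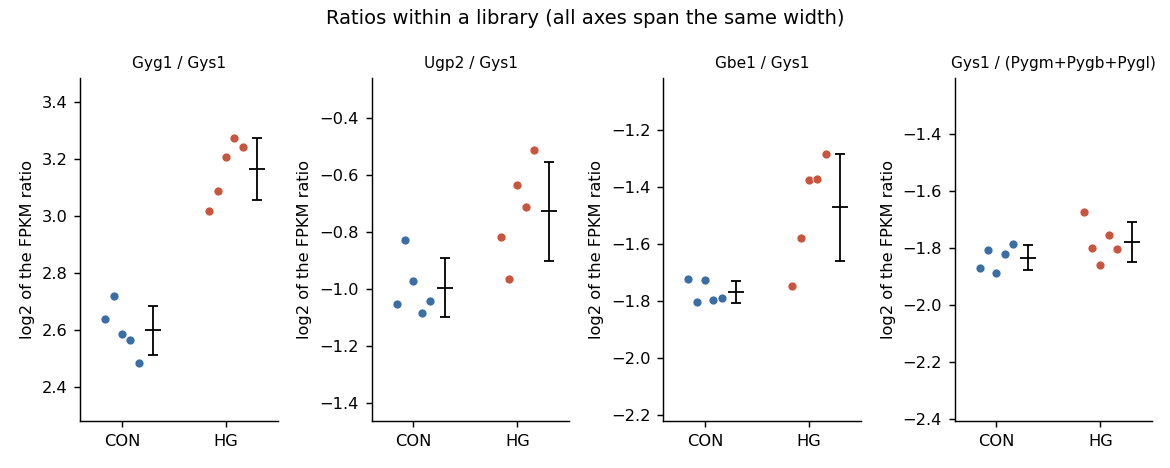
log2 of the FPKM ratio of 4 gene pairs within each library (y axis, every panel spanning the same width), with 1 point per library for CON and HG and the mean and SD beside them. The ratio of Gyg1 to Gys1 parts the groups, the ratios of Ugp2 and Gbe1 to Gys1 shift up with overlap, and that of Gys1 to the phosphorylases overlaps in part.

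Among the regulatory genes, Phka1 (64561), the muscle regulatory subunit of phosphorylase kinase, measured 4.24, 4.63, 4.74, 4.29 and 5.12 FPKM in CON and 4.00, 4.30, 4.35, 4.56 and 4.60 FPKM in HG. Its ranges overlapped, and the log2FC was -0.07 (95% interval -0.22 to 0.08, limma, BH-adjusted p = 0.430). Phka1 made up 57.6 ± 3.48% of the summed FPKM of Phka1 and its liver counterpart Phka2 over 5 CON libraries and 55.3 ± 1.46% over 5 HG libraries (SD, exact permutation p = 0.214, BH-adjusted p = 0.238).

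Ppp1r3a (500036), whose product anchors protein phosphatase 1 on glycogen in striated muscle, measured 4.16, 5.03, 4.54, 4.80 and 4.82 FPKM in CON and 2.81, 3.29, 3.53, 3.34 and 3.82 FPKM in HG. All HG libraries lay below the lowest CON library, and the mean fell by 28.1% (limma log2FC -0.47, SE 0.0857, BH-adjusted p = 0.00108). It was a small part of its family in these hearts, with 2.66 ± 0.292% of the summed FPKM of the Ppp1r3 genes over 5 CON libraries and 2.38 ± 0.280% over 5 HG libraries (SD, exact permutation p = 0.167, BH-adjusted p = 0.208). The main member was Ppp1r3c, the subunit also called protein targeting to glycogen, with 50.3 ± 0.987% of the family in CON and 41.5 ± 1.61% in HG.

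**Figure D4:**
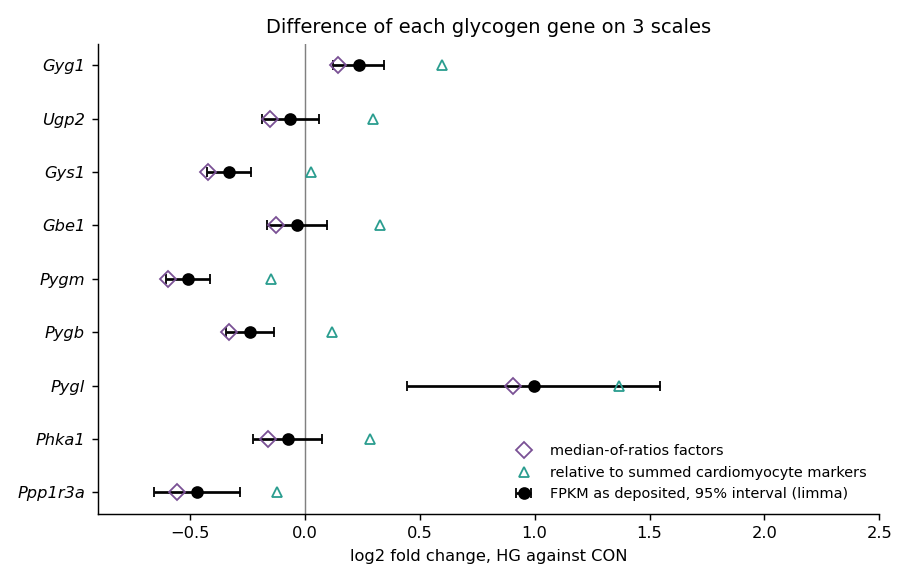
Fitted log2 difference of each glycogen gene, HG minus CON (x axis), from limma on the deposited FPKM with its 95% interval (filled circles), with median-of-ratios factors (diamonds) and relative to the summed cardiomyocyte markers of the same library (triangles). Circles and diamonds of Gys1, Pygm, Pygb and Ppp1r3a lie below 0, whereas their triangles lie between -0.15 and 0.12.

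The 4 genes that were lower fell together with cardiomyocyte markers. The 9 markers had a median log2FC of -0.31, close to that of Gys1. Myh6, which encodes the α-myosin heavy chain, had the lowest with -1.03 (limma, BH-adjusted p = 1.97e-06), whereas Nkx2-5 and Myl7 had -0.12 and -0.06 and did not pass. The largest parts of the marker sum were Myl2 (mean 6739 FPKM in CON and 5100 FPKM in HG) and Tnnt2 (mean 3953 FPKM in CON and 3246 FPKM in HG). Each gene was then divided by the summed cardiomyocyte markers of its own library, a measure chosen after these values were seen and given without a test. On this log2 scale HG differed from CON by -0.15 for Pygm, -0.12 for Ppp1r3a, 0.029 for Gys1 and 0.12 for Pygb, and the groups overlapped in these 4. The differences were 1.37 for Pygl, 0.60 for Gyg1, 0.33 for Gbe1, 0.30 for Ugp2 and 0.28 for Phka1, and the groups did not overlap in these 5. Since the marker sum was lower in HG, this scale lifts every gene by 0.36, and on it 58% of all genes tested were higher in HG without overlap and 1.43% lower, so that 5 of 9 is near the share of all genes. Because the lift is the same for every gene, the order of the genes is the same on both scales by construction. Pygm and Ppp1r3a were lowest and Pygl and Gyg1 highest, while the sign of Gys1, Pygb, Ugp2, Gbe1 and Phka1 depended on the scale. The part of cell composition in these differences was not tested.

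A further 39 genes of glycogen metabolism and glucose entry were listed by role, of which 35 passed the filter on low values. Of these 35 genes, 10 were called, 6 higher and 4 lower in HG, a smaller proportion than the 40.1% of all genes tested, and their median log2FC was 0.04. With median-of-ratios factors 4 were higher and 8 lower, against 15.7% and 17.5% of all genes.

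Among the other genes of breakdown, Stbd1, which tethers glycogen to membranes, had a log2FC of -0.22 (limma, BH-adjusted p = 0.00380). The lysosomal glucosidase gene Gaa had 0.19 and did not pass (limma, BH-adjusted p = 0.0546).

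On the side of synthesis, Pgm1, which interconverts glucose 1-phosphate and glucose 6-phosphate, averaged 130.4 ± 8.84 FPKM in CON and 95.4 ± 7.43 FPKM in HG (limma log2FC -0.45, BH-adjusted p = 0.000123). Pgm2, known mainly as a phosphopentomutase, was higher, with 11.7 ± 0.520 FPKM in CON and 14.6 ± 0.500 FPKM in HG (limma log2FC 0.31, BH-adjusted p = 0.000221). Of the other phosphorylase kinase subunits, Phkg2, the catalytic subunit of liver and other tissues, was higher with 0.22 (limma, BH-adjusted p = 0.0120) and did not pass with median-of-ratios factors (limma, BH-adjusted p = 0.102). Phkb and Phka2 had 0.14 and 0.06 and did not pass, and the muscle catalytic subunit gene Phkg1 lay under the filter with a median of 5 reads per library.

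Of 9 phosphatase genes, Ppp1r3c alone was called, with an average of 88.6 ± 5.21 FPKM over 5 CON libraries and 58.8 ± 6.11 FPKM over 5 HG libraries (SD, limma log2FC -0.60, BH-adjusted p = 3.52e-05). A share of 1 in 9 is near the 11.8% of all genes tested that were called lower. Ppp1r3b, Ppp1r3d, Ppp1r3e, Ppp1r3f and Ppp1r3g had log2FC values of -0.02, -0.09, -0.47, 0.04 and -0.28 and did not pass, with a median of only 13 reads per library behind Ppp1r3e and 11.5 behind Ppp1r3g. With median-of-ratios factors Ppp1r3d and the catalytic subunit gene Ppp1cb also passed, at -0.18 and -0.15 (limma, BH-adjusted p = 0.00752 and 0.0254). With libraries matched by quantiles, Ppp1r3d was called lower at -0.13 (limma, BH-adjusted p = 0.0210). In that setting the catalytic subunit genes Ppp1ca and Ppp1cc were called higher, at 0.13 and 0.11 (limma, BH-adjusted p = 0.00417 and 0.0407).

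Among 9 kinase genes acting on glycogen synthase, 3 subunits of AMP-activated protein kinase were higher in HG, a share near the 28.4% of all genes tested. Prkaa1, a catalytic subunit, had a log2FC of 0.38 (BH-adjusted p = 7.90e-05), Prkab2, a glycogen-binding subunit, 0.30 (BH-adjusted p = 0.00609), and Prkag2, a nucleotide-sensing subunit, 0.24 (BH-adjusted p = 0.00366, all from limma). These 3 genes passed in each of the 21 alternative settings. Prkaa2, the other catalytic subunit, had -0.10 and did not pass, but was called lower with median-of-ratios factors (limma log2FC -0.18, BH-adjusted p = 0.0194).

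Among genes of glucose entry and exit, the insulin-responsive transporter gene Slc2a4 averaged 19.1 ± 1.29 FPKM over 5 CON libraries and 14.3 ± 1.2 FPKM over 5 HG libraries (SD, limma log2FC -0.41, BH-adjusted p = 0.000372). Slc2a1, the transporter that prevails before birth, was higher with 0.28 (limma, BH-adjusted p = 0.0451), but its HG libraries ranged from 129 to 199.9 FPKM around the narrow CON range of 129 to 133 FPKM, and it passed in 10 of 21 alternative settings. The hexokinase genes Hk1 and Hk2 had -0.02 and 0.07 and did not pass.

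**Figure D5:**
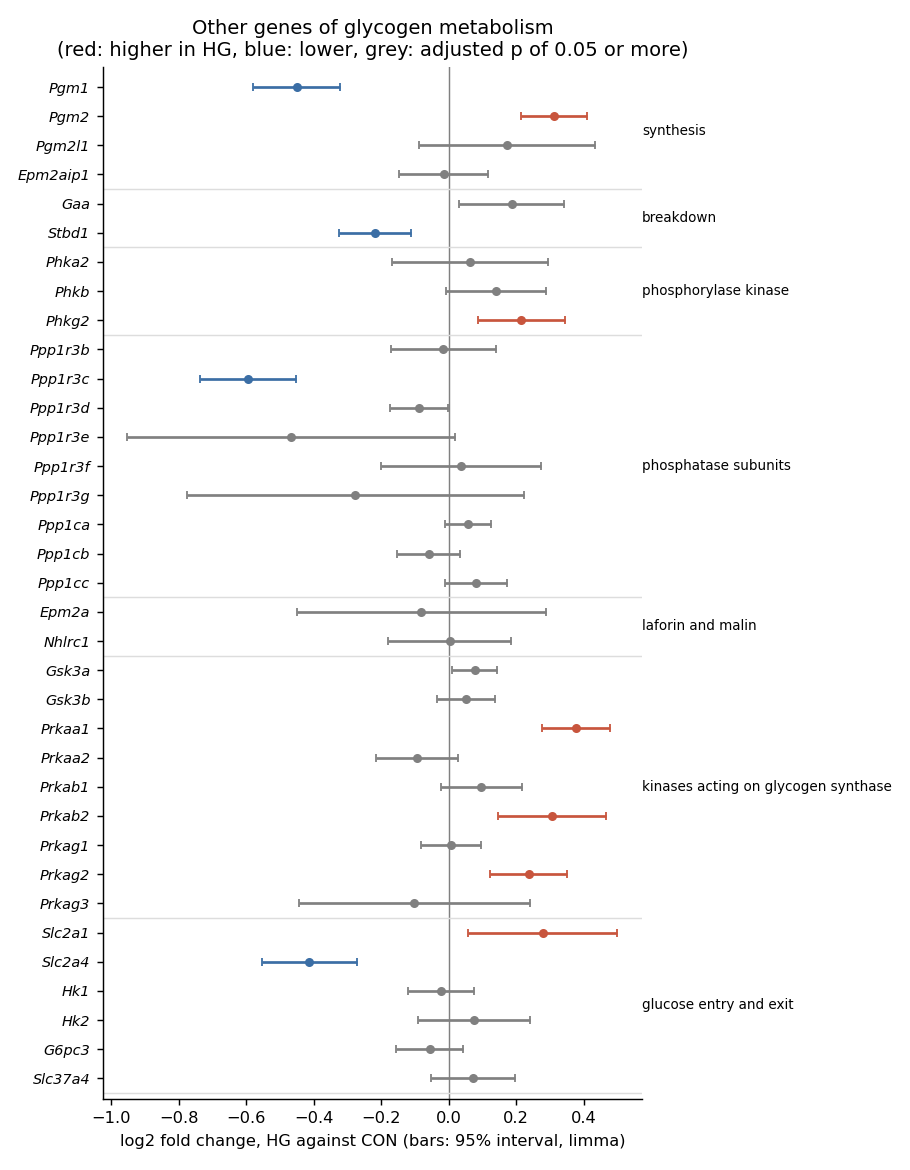
Fitted log2 difference, HG minus CON, with its 95% interval from limma (x axis) for the 35 further genes above the filter, grouped by role. Genes called higher are red, genes called lower blue and the rest grey, and Ppp1r3c, Pgm1 and Slc2a4 lie furthest to the left among those called.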

How the data were processed

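Fetal heart mRNA was measured in 5 CON and 5 HG libraries. The authors deposited FPKM per gene, and 0 columns of per-sample values went unused. The submitters' processing notes name fastp, HISAT2, HTSeq, R 3.2.0 and the build mRatBN7.2, without roles, and how reads shared by related genes were assigned is not given in the sources used here.

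Read numbers were recovered from the smallest steps of each gene's FPKM (every value within 0.05 of a whole number of reads). The main comparison used limma 3.58.1 in R 4.3.3 on log2(FPKM + 0.1), with a trend on expression and without covariates, for genes averaging 0.1 FPKM or more, since the test named in the study's methods takes counts. Ratios within a library were compared with exact permutation tests in scipy 1.17.1. The read recovery and the limma comparison were tested on simulated data, and the permutation tests were not.

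Members and lists were chosen with earlier results of these data known. Named were the 9 genes, the called genes of the further list, the relatives of the 9 genes whether called or not and the 5 genes most like Pygl, which had the largest absolute log2FC. Gaa, Prkaa2, Ppp1ca, Ppp1cb, Ppp1cc, Hk1, Hk2 and the named markers were added after their values were seen. Alternative settings were a pseudocount of 1 or of 0.01, dropping the filter or raising it to 1 FPKM, scaling by median-of-ratios factors or by quantiles, removing hemoglobin genes, array weights, a fit without the trend, a replicate block, voom on recovered reads, and leaving out each library. An item of the further list and the ratio that needs it are not reported here. The ratio to cardiomyocyte markers was added after seeing the data.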

Additional observations from a re-analysis of the deposited data

Results flagged for a closer look

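In 38 groups of 5 libraries tested for a library far from the others (the 9 genes and 10 ratios in CON and HG), 1 was found, where chance gives about 5% of groups. The share of Pygb in the summed FPKM of the phosphorylase genes was 27.6% in HG library 3, against 24.0% to 24.8% in the other HG libraries, and the same library had the lowest share of Pygm, 66.4%. Without HG replicate 3 the difference of the Pygb share between HG and CON was 1.82 percentage points in place of 2.45, and it was still past the threshold (exact permutation test, adjusted p = 0.0397).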

How the results depend on the processing

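Of the 9 genes, 6 were called under each of the 21 alternative settings except median-of-ratios factors, where Gyg1 was lost (log2 fold change 0.15, adjusted p = 0.0652 from limma), which left 5 genes called, 1 of them higher. The number of all genes called higher was 4127, against 2289 when median-of-ratios factors were used and 2615 when quantiles were matched, since both scalings remove the shift of the median gene. Of the 35 further genes, 10 were higher with hemoglobin genes left out (31.8% of all genes), against 6, and 8 were lower with median-of-ratios factors (17.5% of all genes), against 4. Relative to cardiomyocyte markers, the sign turned for Ugp2 (0.30), Gys1 (0.029), Gbe1 (0.33), Pygb (0.12) and Phka1 (0.28), and the size moved for Gyg1 (0.60), Pygm (-0.15) and Ppp1r3a (-0.12), by the construction of this ratio.

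With 1 library left out, the log2 fold change of Gbe1 ranged from -0.067 to 0.019 and the difference of the Gys1 share from -0.044 to 0.00055 percentage points. The log2 ratios ranged from 0.25 to 0.36 for Gbe1 to Gys1 and from 0.21 to 0.33 for Ugp2 to Gys1. Fewer libraries raise the smallest p of these exact tests.

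With the replicate number as a block, limma called 5096 genes in place of 5836 and the 9 genes kept their calls. For the ratios, a sign-flip test over 5 pairs cannot go below 0.0625 and says nothing about stability. Under the block its adjusted p was 0.156 for the shares of Pygm (-6.00), Pygb (2.45) and Pygl (3.55) and the log2 ratio of Gyg1 to Gys1 (0.57), and 0.208 for Gbe1 (0.30) and Ugp2 (0.27) to Gys1. The numbers do not pair the libraries (correlations from -0.13 to 0.11). Depth limits Gys2, Phkg1, Ppp1r3e and Ppp1r3g, with a median of 13 reads or fewer.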

Other observations

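The 5 genes whose log2(FPKM + 0.1) followed Pygl most closely over the 10 libraries, out of those averaging 1 FPKM or more, were Gpr27, RGD1304587, Cbfa2t2, Rgp1 and Megf9, with Pearson's r between 0.929 and 0.973. These values are a description, since the libraries share the difference between groups and the genes were chosen as the closest of all. Gpr27, an orphan receptor gene, averaged 0.737 ± 0.402 FPKM over 5 CON libraries and 1.56 ± 0.258 FPKM over 5 HG libraries (SD).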
